A study of Mus musculus with 10 samples.

Results

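The genes described here encode the outer-membrane channels of the mitochondrion and the proteins that bring precursors across that membrane, together with a pair of proteins known from the study of cholesterol transport and of the permeability transition. They are Vdac1, Vdac2, Vdac3, Tspo, Ppif, Tomm20, Tomm22, Tomm40, Tomm70a and Samm50, chosen by name, and each was matched by its symbol to 1 of the 49315 rows of the count table. All 10 passed the filter on low counts, as did 14714 genes in all. Vdac2 had been noted in earlier work on these data for 1 outlying mouse and for its relation to slow-fibre genes, so its values are given as a description with no p-value.

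RNA came from the gastrocnemius of 10 male C57BL6J mice, 5 AHRfl and 5 AHRmko, and every mouse of both genotypes had breathed cigarette smoke on 5 days per week for 16 weeks. AHRfl mice carry floxed alleles of Ahr, the aryl hydrocarbon receptor, a transcription factor that binds ligands from smoke, and lack Cre. AHRmko mice carry the same alleles and HSA-MCM, a MerCreMer recombinase driven by the human skeletal actin promoter, so that deletion after tamoxifen is limited to myofibres and the other cells of the muscle keep the gene. Smoke began 4 weeks after tamoxifen according to the labels and the supplementary methods (the main text of the study gives a shorter interval), and muscles were taken 72 h after the last exposure according to the labels (the main text also allows an earlier harvest). The controls were littermates, the study calls its mice aged without a figure for these animals in the sources used here, and no air-exposed mouse is among the libraries. Whether the comparison touched these genes bears on the question of the study, which was whether the receptor in myofibres takes part in the effect of smoke on muscle mitochondria.

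Most mitochondrial proteins are made in the cytosol and enter through the TOM complex of the outer membrane. Tomm20 and Tomm70a encode receptors that recognise precursors, Tomm22 a receptor that also holds the complex together, and Tomm40 the barrel-shaped pore itself. Samm50 is the core of the SAM complex, which folds barrel proteins such as TOMM40 and the VDACs into the outer membrane. The VDACs are the pores through which ATP, ADP and other metabolites pass, TSPO is an outer-membrane protein that binds cholesterol and a set of drug ligands, and Ppif encodes cyclophilin D, a matrix protein that regulates the permeability transition pore and has long been studied beside VDAC.

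Total counts were between 30393035 and 37954388 per mouse, and no 2 libraries held the same counts. Ahr itself gave 3.13, 2.05, 1.64, 1.95 and 1.33 CPM (counts scaled to the normalized library size) in AHRfl mice 11, 12, 13, 15 and 33, and 1.65, 2.17, 1.54, 1.63 and 0.927 CPM in AHRmko mice 8, 9, 19, 22 and 34. The groups overlapped (log2 fold change -0.35, 95% interval -0.90 to 0.20, edgeR adjusted p = 0.844), and reads from the exons outside the floxed part and from cells other than myofibres are counted too. Esr1, part of which is in the MerCreMer transgene, rose from 17.1 ± 1.14 to 371 ± 173 CPM (SD, n = 5) with no overlap and an edgeR adjusted p of 0.000433, so the libraries match their genotype labels. Muscle genes were abundant in every mouse (a summed level of Acta1, Ckm, Des, Mb and Myog between 50801 and 62515 CPM). Xist, transcribed from the inactive X chromosome of female cells, had between 44 and 75 counts in 5 mice (3 AHRfl, 2 AHRmko) and at most 3 in the others, while 4 Y-linked genes had between 282 and 2723 counts in every mouse. A fit with a term for mice with Xist counts, added after the data were seen, gave a median log2 fold change of the 10 genes of -0.11, as the fit without it did.

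The levels of the 10 genes differ widely. Per length (RPKM, CPM divided by the kilobases of annotated exon), Vdac1 stood first with 534 ± 30.0 (SD, n = 10). Vdac3 followed with 82.8 and Vdac2 with 65.1 RPKM, and the ranges of these 3 genes did not meet (489 to 603, 77.2 to 91.5 and 59.1 to 71.3). Samm50, at 42.9 RPKM (39.7 to 46.5), came next and was also clear of its neighbours. Tomm22 (22.2), Tspo (21.1) and Tomm20 (18.05) lay close together, and the ranges of Tomm22 (20.1 to 24.8) and Tomm20 (14.9 to 20.8) each overlapped that of Tspo (17.3 to 26.5). Tomm40 had 9.45 RPKM, between 7.98 and 10.5. Ppif (5.58) and Tomm70a (5.20) were the lowest and did not differ beyond their spread, with ranges of 4.82 to 6.85 and 4.78 to 5.84. The length used is that of all annotated exons of a gene, so a gene with long or rarely used exons, such as Tomm70a with 9777 nt, is placed low by this measure.

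Vdac1 (ENSMUSG00000020402) lies on the plus strand of GRCm38 at chr11:52360860-52389397, Vdac2 (ENSMUSG00000021771) on the plus strand at chr14:21825238-21845879, and Vdac3 (ENSMUSG00000008892) on the minus strand at chr8:22577075-22593813. On the count scale of CPM, Vdac1 was 1363, 1579, 1438, 1381 and 1413 in AHRfl mice 11, 12, 13, 15 and 33, and 1282, 1355, 1442, 1374 and 1355 in AHRmko mice 8, 9, 19, 22 and 34. AHRfl mouse 12 was the highest and AHRmko mouse 8 the lowest, and the genotypes overlapped between them (log2 fold change -0.076, 95% interval -0.22 to 0.07, edgeR adjusted p = 0.879; log2 fold change -0.040 without mouse 12).

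Vdac2 was 305.4, 340.2, 312.4, 306.3 and 303.1 CPM in the same AHRfl mice, and 281.9, 313.1, 320.7, 302.4 and 317.7 CPM in the AHRmko mice. The AHRfl mice other than mouse 12 thus lay within 303.1 to 312.4 CPM, and mouse 12 stood above all others, while 2 of the 5 AHRmko mice were below every AHRfl mouse. The log2 fold change was -0.029 with a 95% interval of -0.16 to 0.10. Without AHRfl mouse 12 it was 0.00097, so that the direction rests on that mouse, and without AHRmko mouse 8 it was -0.00015. Vdac3 ranged from 430.8 to 496.2 CPM in AHRfl and from 418.4 to 480.9 CPM in AHRmko mice, again with mouse 12 highest and mouse 8 lowest, and its log2 fold change of -0.023 (edgeR adjusted p = 0.974) became 0.012 without mouse 12 and -0.0013 without mouse 8.

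The proportions of the 3 channels were steadier than their levels. Of the summed RPKM of the 3 genes, Vdac1 took 78.3% ± 0.442, Vdac3 12.2% ± 0.295 and Vdac2 9.55% ± 0.231 (SD, n = 10). The share of Vdac1 was between 77.6% and 79.0% over the 10 mice. In AHRfl mice Vdac1 took 78.6% ± 0.396 and in AHRmko mice 78.0% ± 0.271 (SD, n = 5), a difference given here as a description.

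Vdac3-ps1, annotated as an unprocessed pseudogene, matches a Vdac3 transcript at 99.2% over 856 nt and had 1622 counts in all, or 1.02% of those of Vdac3. The pseudogene copies of Vdac2 and Tomm22 found in the same way held under 0.1% of their gene's counts, and those of Tomm20 held 0.393%, and reads that match several places equally were not counted. Exons of Tspo share 53 nt with Mcat on the other strand, and those of Tomm40 share 258 nt with Gm20512, which had 7 counts in all. Those of Vdac2 share 25 nt with Comtd1 and those of Tomm70a 41 nt with Nit2, also on the other strand. Per the methods of the study, reads were to be counted by strand if the libraries were stranded, and whether they were is not given in the sources used here, so reads in those stretches cannot be assigned with certainty.

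**Figure D1:**
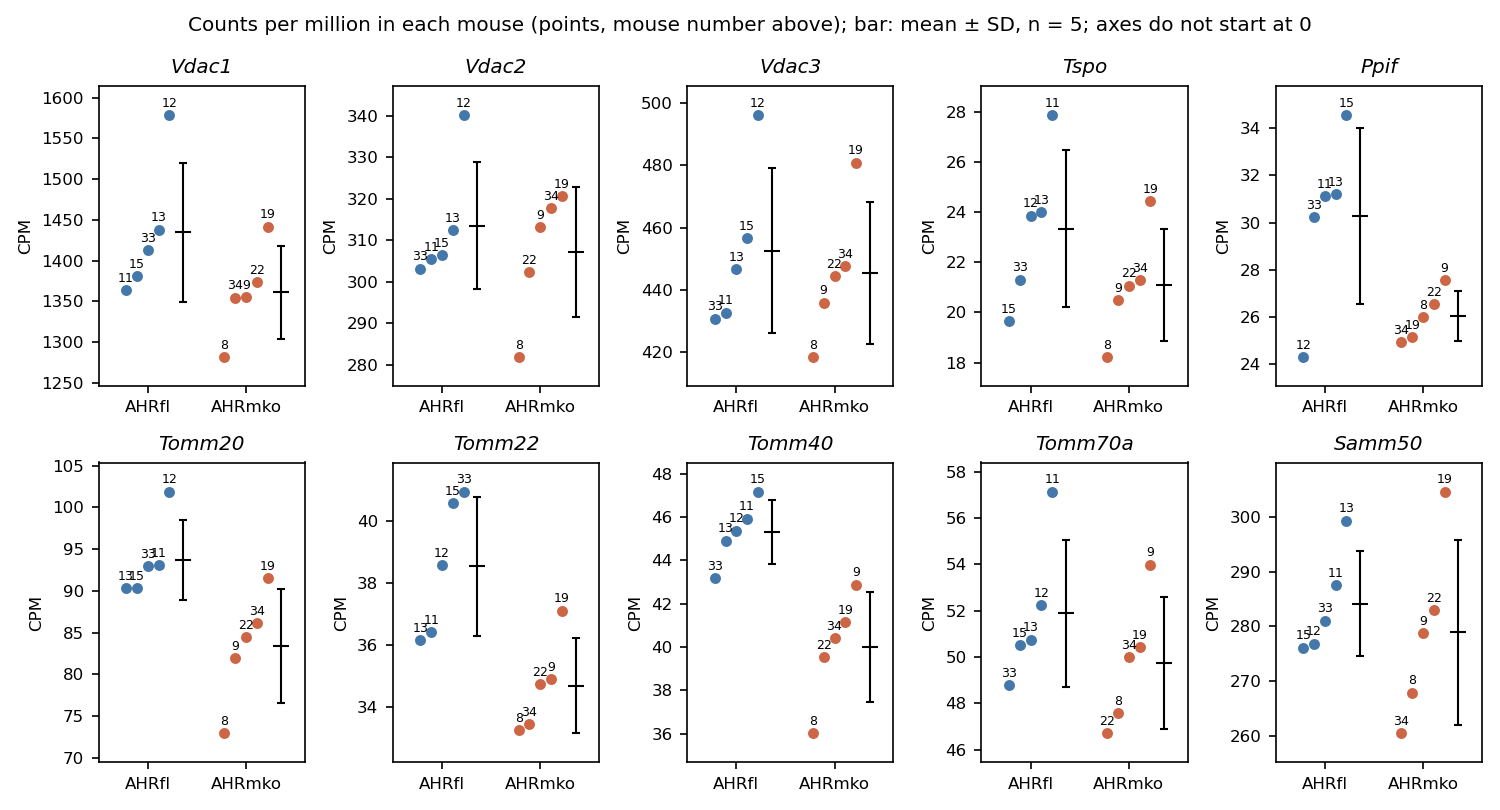
CPM of each of the 10 genes in each mouse (vertical axis, not starting at 0), AHRfl in blue and AHRmko in orange, with the mouse number above each point and the mean ± SD of 5 mice as a bar. The points of Tomm40 do not overlap between genotypes (lowest AHRfl 43.2, highest AHRmko 42.9 CPM), and AHRfl mouse 12 is the highest in the panels of Vdac1, Vdac2, Vdac3 and Tomm20.

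Tspo (ENSMUSG00000041736) lies on the plus strand at chr15:83563592-83574203. Its CPM was 27.9, 23.8, 24.0, 19.7 and 21.3 in the AHRfl mice and 18.2, 20.5, 24.4, 21.1 and 21.3 in the AHRmko mice, in the order of mice given above. AHRfl mouse 11 was highest and AHRmko mouse 8 lowest, and the genotypes overlapped over most of their range (log2 fold change -0.15, 95% interval -0.36 to 0.068, edgeR adjusted p = 0.826; two-sided exact permutation test, p = 0.246). Without AHRfl mouse 11 the log2 fold change was -0.074. Tspo is abundant in macrophages and several other non-muscle cells. The summed level of 9 macrophage markers was between 40.8 and 68.0 CPM in AHRfl and between 35.5 and 84.3 CPM in AHRmko mice, 2 of the 9 had a log2 fold change below 0, and none of the 9 was at 0 in all mice (the lowest, Adgre1, had a mean of 0.975 CPM). Mouse 11 also had the highest summed levels of adipocyte markers (57.9 CPM) and Schwann cell markers (104.6 CPM). The adipocyte sum was 56.6 CPM in mouse 9, with 20.5 CPM of Tspo, and the Schwann cell sum was 97.7 CPM in mouse 8, the lowest in Tspo. The part of these cells in the level of Tspo was not tested, and in RNA from whole muscle fewer cells of a type and less RNA per cell cannot be told apart.

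Ppif (ENSMUSG00000021868), on the plus strand at chr14:25694154-25700468, gave 31.1, 24.3, 31.2, 34.6 and 30.2 CPM in the AHRfl mice and 26.0, 27.6, 25.1, 26.5 and 24.9 CPM in the AHRmko mice. Every AHRmko mouse was below 4 of the 5 AHRfl mice and above mouse 12, the lowest of all 10. This is the reverse of the place of mouse 12 in the VDAC genes. Ppif had the most negative log2 fold change of the 10 genes, -0.22, with an unadjusted edgeR p of 0.0212, an adjusted p of 0.665 and a two-sided exact permutation p of 0.0476. Without mouse 12 it was -0.29, with an edgeR adjusted p of 0.411. Without AHRfl mouse 15, the highest in Ppif, it was -0.17, with an unadjusted edgeR p of 0.0673 and an adjusted p of 0.752.

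Of the TOM genes, Tomm40 (ENSMUSG00000002984, minus strand, chr7:19701313-19715438) was the only one of the 10 genes whose genotypes did not overlap. It was 45.9, 45.4, 44.9, 47.2 and 43.2 CPM in the AHRfl mice and 36.01, 42.9, 41.2, 39.5 and 40.4 CPM in the AHRmko mice. The gap between the groups, from 42.9 to 43.2 CPM, was smaller than the SD of either (1.46 in AHRfl, 2.54 in AHRmko, n = 5). Its log2 fold change was -0.18 (unadjusted edgeR p = 0.00989, adjusted p = 0.661), and the two-sided exact permutation p of 0.00794 is the smallest that 5 against 5 mice can give. Among all genes tested, 105 (0.714%) had every AHRmko mouse below every AHRfl mouse, and 1.4% with no overlap in either direction. Of these 10 genes 1 did.

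Tomm20 (ENSMUSG00000093904, minus strand, chr8:126930667-126945844) was 93.0, 101.9, 90.3, 90.3 and 92.9 CPM in the AHRfl mice and 72.9, 81.9, 91.6, 84.4 and 86.1 CPM in the AHRmko mice. Mouse 19 was the one AHRmko mouse inside the AHRfl range, and mouse 8 was the lowest (log2 fold change -0.17, unadjusted edgeR p = 0.0280, adjusted p = 0.697; two-sided exact permutation test, p = 0.0238). Tomm22 (ENSMUSG00000022427, plus strand, chr15:79670861-79673400) was 36.4, 38.6, 36.2, 40.6 and 41.0 CPM in the AHRfl mice and 33.3, 34.9, 37.1, 34.7 and 33.4 CPM in the AHRmko mice. Here too 4 of the 5 AHRmko mice were below every AHRfl mouse and mouse 19 was the exception. The log2 fold change of Tomm22 was -0.15 (unadjusted edgeR p = 0.0259, adjusted p = 0.691, two-sided exact permutation p = 0.0238). Without AHRmko mouse 8 it was -0.14, and that of Tomm20 was -0.12 and of Tomm40 -0.14. The unadjusted edgeR p was then 0.0524 for Tomm22, 0.0705 for Tomm20 and 0.0245 for Tomm40.

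Tomm70a (ENSMUSG00000022752, plus strand, chr16:57121703-57156705) was 57.1, 52.2, 50.7, 50.5 and 48.8 CPM in the AHRfl mice and 47.6, 54.0, 50.4, 46.7 and 49.996 CPM in the AHRmko mice, with the groups largely overlapping (log2 fold change -0.061, edgeR adjusted p = 0.896; -0.024 without AHRfl mouse 11 and -0.039 without AHRmko mouse 22). Samm50 (ENSMUSG00000022437, plus strand, chr15:84192241-84217267) ranged from 276.1 to 299.3 CPM in AHRfl and from 260.4 to 304.7 CPM in AHRmko mice. The AHRmko range of Samm50 enclosed that of AHRfl, and its log2 fold change was -0.027 (edgeR adjusted p = 0.964), with values from -0.057 without AHRmko mouse 19 to -0.0034 without AHRmko mouse 34.

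Set side by side, all 10 log2 fold changes were below 0, between -0.22 and -0.023, with a median of -0.11, or -0.15 over the 9 other than Vdac2, beside 0.0056 over all genes tested. Of all genes, 48.5% were below 0. None of those 9 had an adjusted p under 0.05, where 1 of 14714 genes (0.0068%), Esr1, did. Ppif, Tomm20, Tomm22 and Tomm40, 4 of the 9, had an unadjusted p under 0.05 and were lower in AHRmko, against 3.38% of all genes in that direction and 6.61% in either. With each mouse left out, between 2 and 4 of them did. The number was 2 without AHRmko mouse 8 and also 2 without AHRfl mouse 15. The mean log2 CPM of the 10 genes was 6.82 ± 0.024 in AHRfl and 6.71 ± 0.068 in AHRmko mice (SD, n = 5). The genotypes overlapped in this mean. Taken from each gene's median over the mice, AHRmko mouse 19 (0.043) was above AHRfl mouse 33 (0.030). AHRmko mouse 8 was the lowest (-0.14). All 8 listed slow-fibre markers had a log2 fold change above 0, beside 7581 of the 14714 genes tested. None of the 8 had an edgeR adjusted p under 0.05. Their summed level overlapped between genotypes. It was between 94.8 and 2019 CPM in AHRfl (median 262) and between 252 and 2395 CPM in AHRmko mice (median 594). Of the 9 listed fast-fibre markers 2 had a log2 fold change below 0, and none had an edgeR adjusted p under 0.05. Their summed level was between 126773 and 178174 CPM in AHRfl (median 142459) and between 142097 and 176406 CPM in AHRmko mice (median 157011). With log2 CPM of Myh7 as a covariate the median log2 fold change of the 10 genes was -0.076 and all 10 stayed below 0. Under it that of Tspo was -0.094, of Tomm70a -0.032, of Vdac3 -0.010 and of Vdac2 -0.0059, each nearer 0 by over 1.5 times. Those of Tomm20 (-0.15), Tomm40 (-0.16), Vdac1 (-0.058) and Samm50 (-0.022) were nearer 0 by less. Those of Ppif (-0.24) and Tomm22 (-0.17) were farther from 0. Ppif, Tomm20, Tomm22 and Tomm40 kept an unadjusted edgeR p under 0.05. None of the 9 genes other than Vdac2 passed after adjustment. Of the 45 pairs of the 10 genes, 42 had a Pearson r above 0 across mice, so these counts do not stand for 10 separate observations. By the DESeq2 Wald test 20 genes had an adjusted p under 0.05, again none of the 9, whose lowest adjusted p was 0.299.

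**Figure D2:**
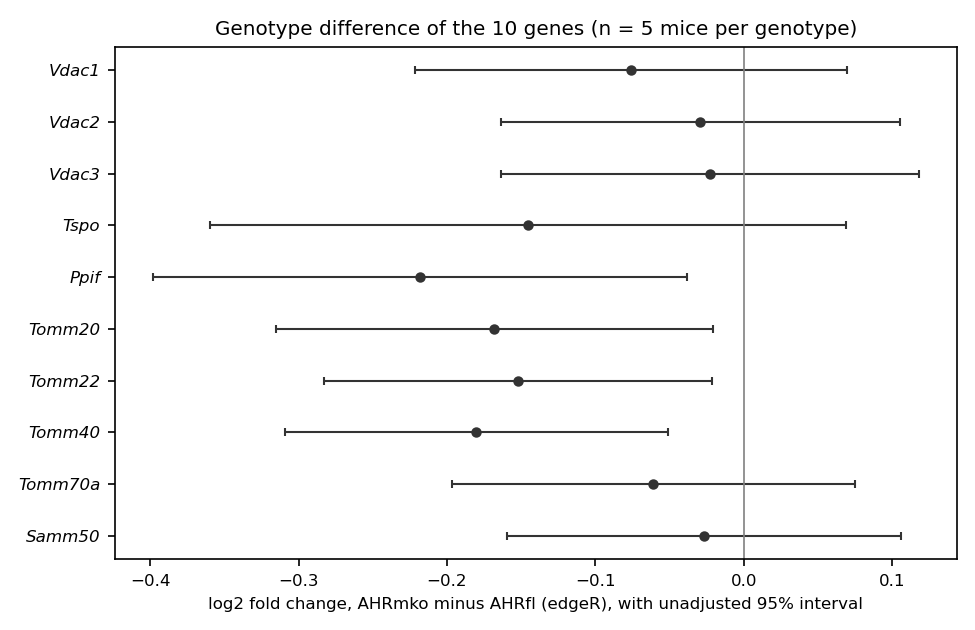
Log2 fold change of each of the 10 genes (AHRmko minus AHRfl, horizontal axis) from edgeR with 5 mice per genotype; bars are unadjusted 95% intervals. All 10 points lie left of 0, between -0.22 for Ppif and -0.023 for Vdac3, and the intervals of Ppif, Tomm20, Tomm22 and Tomm40 do not reach 0.

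As members with the lowest unadjusted p, Tomm40, Tomm20, Tomm22 and Ppif are shown with the 250 bases upstream of their RefSeq start sites (GRCm38.p6), so that the letters bound by the receptor can be looked for. The core bound by AHR with its partner ARNT, GCGTG, is in capitals where it occurs on the strand of the gene, and CACGC marks the same core on the other strand. The windows are chr7:19715430-19715679 (minus strand) for Tomm40, chr8:126945922-126946171 (minus strand) for Tomm20, chr15:79670618-79670867 (plus strand) for Tomm22 and chr14:25693920-25694169 (plus strand) for Ppif, each printed 5′ to 3′ along the gene.
Tomm40: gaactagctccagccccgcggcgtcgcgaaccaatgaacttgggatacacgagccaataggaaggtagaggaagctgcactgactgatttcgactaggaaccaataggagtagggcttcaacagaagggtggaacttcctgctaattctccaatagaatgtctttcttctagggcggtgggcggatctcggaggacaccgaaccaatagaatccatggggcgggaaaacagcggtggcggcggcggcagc
Tomm20: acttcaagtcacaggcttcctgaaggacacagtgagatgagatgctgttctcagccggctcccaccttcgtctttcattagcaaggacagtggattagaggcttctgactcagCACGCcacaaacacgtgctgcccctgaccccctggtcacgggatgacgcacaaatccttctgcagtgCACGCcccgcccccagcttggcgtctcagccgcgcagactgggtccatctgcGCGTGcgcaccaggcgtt
Tomm22: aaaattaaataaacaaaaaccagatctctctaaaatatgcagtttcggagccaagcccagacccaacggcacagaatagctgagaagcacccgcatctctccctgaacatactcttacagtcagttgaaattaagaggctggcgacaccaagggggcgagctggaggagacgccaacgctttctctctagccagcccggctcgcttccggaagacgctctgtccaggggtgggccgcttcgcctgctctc
Ppif: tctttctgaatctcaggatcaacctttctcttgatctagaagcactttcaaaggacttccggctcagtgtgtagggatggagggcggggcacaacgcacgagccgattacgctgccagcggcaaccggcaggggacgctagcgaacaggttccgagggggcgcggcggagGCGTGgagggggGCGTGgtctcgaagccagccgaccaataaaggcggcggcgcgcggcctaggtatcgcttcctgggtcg
Tomm20 holds 3 copies of the core, Ppif 2, and Tomm22 and Tomm40 none. RefSeq windows that also include 50 bases after the start were found for 7 of the 10 genes, in 8 windows since Vdac1 has 2, and none for Vdac2, Vdac3 and Tspo. GCGTG on either strand occurred in those of 5 of the 7 genes (Ppif, Samm50, Tomm20, Tomm70a and Vdac1), and in 32.4% of the 32851 promoter windows of the table. CCGGAAG, the core bound by GABP (NRF-2), a regulator of many respiratory-chain genes, was found on either strand in those of 4 genes (Ppif, Tomm22, Tomm70a and Vdac1) and in 8.86% of all windows. Tomm22 had 3 such matches. Those that begin at -47 and -44 relative to the start overlap on opposite strands, and that at 5 lies after the 250 bases shown. The palindromic motif of NRF1, of 10 letters, and TCAAGGTCA, bound by oestrogen-related receptors, were in none of the 8 windows and in 0.971% and 0.423% of all. Shares were not matched for base composition, and a match describes the letters only.

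The mice differed far more in Myh7 than in any of these genes. Myh7, the slow myosin heavy chain, was 14.3, 3.32, 9.34, 489 and 285 CPM in AHRfl mice 11, 12, 13, 15 and 33, and 631, 5.70, 127, 441 and 48.1 CPM in AHRmko mice 8, 9, 19, 22 and 34, a 190-fold range with both genotypes at each end. The study removed red portions of some gastrocnemius muscles for other assays; what was left in each sample is not given in the sources used here. AHRfl mouse 12, with the lowest Myh7, had the highest Vdac1, Vdac2, Vdac3 and Tomm20, and AHRmko mouse 8, with the highest Myh7, had the lowest level of 7 of the 10 genes and none above its median over the 10 mice.

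The relation was measured as the slope of log2 level on log2 CPM of Myh7 with genotype in the fit. None of the 9 slopes tested, those other than that of Vdac2, had an edgeR adjusted p under 0.05, where 129 of 14713 genes (0.877%; 0.557% rising and 0.319% falling with Myh7) did, and none had an unadjusted p under 0.05, where 16.1% of genes did. Of these 9 slopes 7 were below 0, beside 49.8% of all genes, and their median was -0.012 per doubling of Myh7, beside 0.00014 over all genes. The median slope of all 10 genes, also -0.012, was -0.0053 without AHRmko mouse 8 and -0.0059 without AHRfl mouse 12. The steepest was that of Tspo, -0.031 (95% interval -0.069 to 0.0064, edgeR adjusted p = 0.400), which was -0.020 without AHRfl mouse 15 and -0.047 without AHRmko mouse 9. Tomm70a had -0.020 (-0.043 to 0.0025, edgeR adjusted p = 0.364). Ppif (0.019, -0.013 to 0.051) and Tomm22 (0.010, -0.014 to 0.035) were the 2 genes with a slope above 0. That of Ppif was 0.0025 without AHRfl mouse 12, 0.0077 without AHRfl mouse 15 and 0.038 without AHRmko mouse 9, and that of Tomm22 was 0.0067 without AHRfl mouse 33 and 0.017 without AHRmko mouse 9. The slope of Vdac1 was -0.012, and -0.0029 without mouse 12. Those of Tomm20 (-0.013) and Tomm40 (-0.012) were -0.0049 and -0.0056 without AHRmko mouse 8, that of Tomm20 was -0.0058 without AHRfl mouse 12, and that of Tomm40 was -0.0047 without AHRmko mouse 9 and -0.021 without AHRfl mouse 15. Vdac2 had -0.016 with an interval of -0.039 to 0.0063, and -0.011 without mouse 12. With libraries scaled by their total counts alone, the median slope of all genes moved from 0.00014 to 0.013, that of the 10 genes moved from -0.012 to 0.0011, and 3 of the 10 instead of 8 were below 0. The median of the 10 genes thus moved with that of all genes and stayed below it, so a slope is read here relative to all genes and not by its sign.

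Pearson correlations with Myh7 over the 10 mice were computed for all genes and their permutation p-values adjusted over 14713 genes. Among the 10 genes that of Tomm70a was the strongest, with r = -0.74 (permutation p = 0.0120, adjusted p = 0.213) and Spearman's rho = -0.76 (permutation p = 0.0151, adjusted p = 0.232). Without mice 12 and 9, the farthest from the median of Myh7, r was -0.69, and with library size alone it was -0.32. Tspo had r = -0.58 (permutation p = 0.0768, adjusted p = 0.370) and rho = -0.54 (permutation p = 0.112, adjusted p = 0.433), and r was -0.80 without those 2 mice and -0.43 with library size alone. Vdac2 had r = -0.68 and rho = -0.71, and r was -0.49 without them and -0.35 with library size alone. Vdac1 had r = -0.52 (permutation p = 0.123) and rho = -0.36 (permutation p = 0.314), and r was -0.35 without those mice, -0.20 without mouse 12 alone and -0.13 with library size alone. In none of the 9 genes other than Vdac2 did an adjusted p fall under 0.05, where 0.0408% of all genes did by r and 0.0272% by rho. Unadjusted, Tomm70a alone of these 9 was under 0.05, beside 15.6% of all genes by r and 15.3% by rho. Of these 9 genes 7 had r below 0, beside 49.5% of all genes. Correlations within a genotype, over 5 mice, were not computed. The slope did not differ detectably between genotypes either, since edgeR's test of the interaction called none of those 9 genes after adjustment, nor any other gene (0%). At an unadjusted threshold of 0.05 it called 2.63% of genes and none of the 9, with the lowest value for Ppif.

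**Figure D3:**
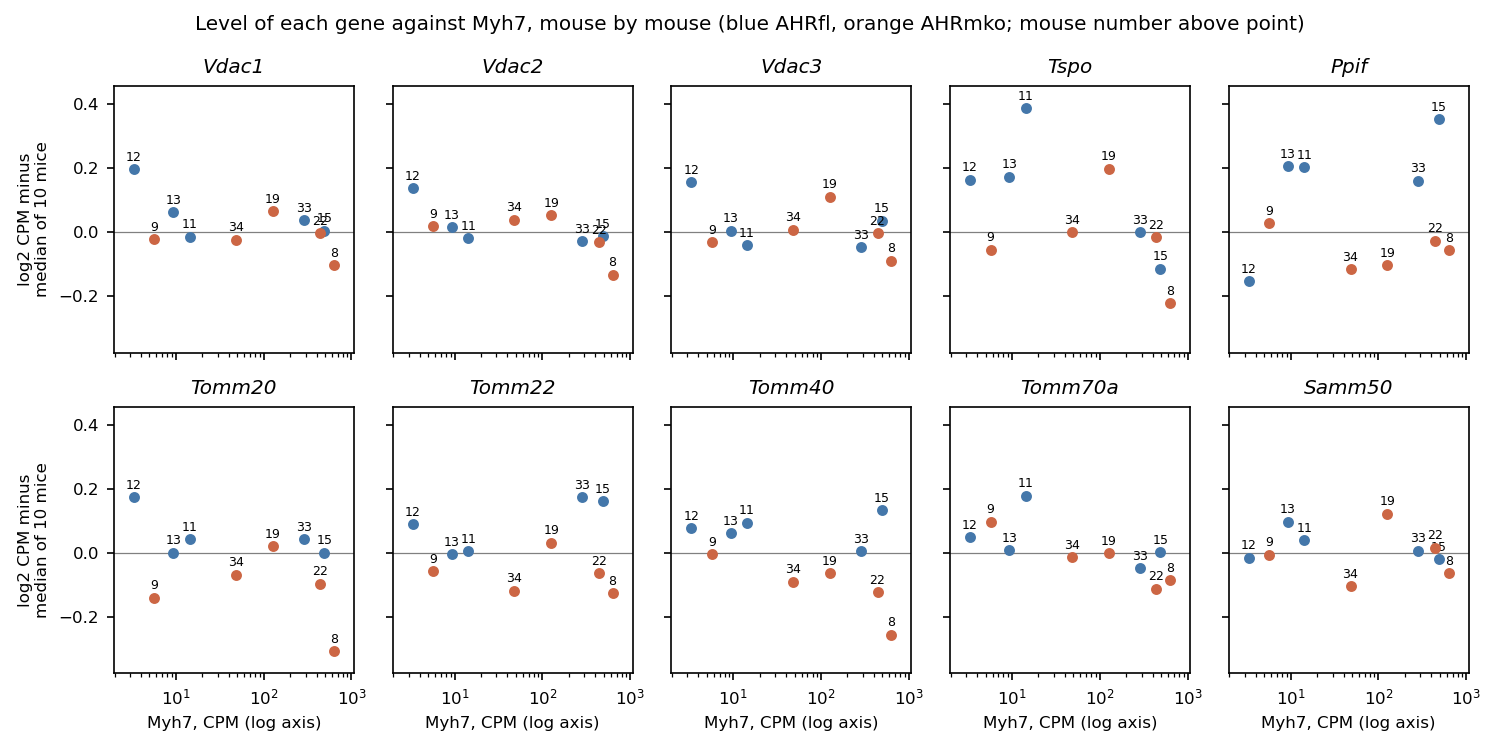
Level of each gene in each mouse as log2 CPM minus its median over the 10 mice (vertical axis), against Myh7 in CPM on a log axis; AHRfl in blue, AHRmko in orange, mouse number above each point. Mouse 12 at the left (3.32 CPM of Myh7) is high in the VDAC panels and low in that of Ppif, and mouse 8 at the right (631 CPM) is below the median in every panel.

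Between mice the 10 genes mostly moved together. Of 45 pairs, 42 had a Pearson r above 0 across the 10 mice, with a median of 0.39, given as a description since all values share their libraries and scaling. Vdac1 with Tomm20 (0.87) and Vdac2 with Vdac3 (0.86) were the closest. The pairs below 0 were those of Ppif with each of the VDAC genes, lowest with Vdac3 (-0.35). Over the 10 mice the coefficient of variation of CPM was between 4.71% for Samm50 and 12.7% for Tspo, with Ppif at 12.1%.

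Likeness of pattern was measured as Pearson r of log2 CPM over the 10 mice among 6968 genes with a mean of at least 10 CPM, with no test. Closest to Vdac1 were Rps9 (0.94), Eef1b2 (0.94), Maf1 (0.93), Dohh (0.93) and Acyp1 (0.93). Vdac2 was closest to Rab28 (0.96), Ubl7 (0.95), Rtn2 (0.95), 1110004F10Rik (0.95) and Ufsp2 (0.94), and Tspo to AI987944 (0.94), Rtca (0.92), Rtl8b (0.91) and Polr2g (0.90).

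The other genes of import and of the partners of these proteins were examined in 9 lists of 62 genes, 60 of which were tested. None had an edgeR adjusted p under 0.05 between genotypes, beside 0.0068% of all genes. Of the 60, 42 were below 0, beside 48.5% of all genes, and their median log2 fold change was -0.046, beside 0.0056 over all genes. At an unadjusted p under 0.05 there were 4 of the 60, a share close to the 6.61% of all genes. Mtx2, a metaxin of the SAM complex, was 25.8 in AHRfl and 20.9 CPM in AHRmko (log2 fold change -0.30, adjusted p = 0.691), and Mtch1, an insertase of the outer membrane, was 62.7 and 55.9 CPM (-0.16, adjusted p = 0.720). Dbi, the acyl-CoA binding protein that is a ligand of TSPO, was 71.0 and 64.3 CPM (-0.14, adjusted p = 0.718). Pmpca, a subunit of the protease that removes presequences, was the one of the 4 that was higher, at 121.7 in AHRfl and 136.9 CPM in AHRmko (0.17, adjusted p = 0.665).

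Pmpca and Dbi were also the most abundant genes of their lists. Those of the other 7 lists are given next, with no test beyond their intervals. Tomm7, a small subunit of the TOM complex, had a log2 fold change of -0.063, Mtch2, a second insertase, of -0.047, and Hspa9, the chaperone of the import motor, of 0.0078. Those of Timm29 of the TIM22 carrier translocase, of Aifm1, the partner of the intermembrane oxidoreductase, and of Immt, the core of MICOS, were -0.072, 0.086 and -0.010. Slc25a4, the muscle ADP/ATP carrier that exchanges the nucleotides passing through VDAC, had 3807 CPM and a log2 fold change of -0.021 (95% interval -0.18 to 0.14). All 7 intervals included 0, while the unadjusted 95% intervals of Pmpca (0.038 to 0.30) and Dbi (-0.28 to -0.012) did not.

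On Myh7, 1 of the 60 genes had an edgeR adjusted p under 0.05, beside 0.877% of all genes, and 10 of the 60 had an unadjusted p under 0.05, beside 16.1%. This was Gfer, the sulfhydryl oxidase of the intermembrane import pathway, which fell by 0.078 on the log2 scale per doubling of Myh7 (95% interval -0.11 to -0.046, adjusted p = 0.0301), with r = -0.89 over the 10 mice. The number of genes called from these lists was 0 when any of AHRfl mice 11, 12, 13, 15 and 33 or AHRmko mouse 22 was left out and 6 without AHRmko mouse 9, where 947 of 14919 genes were called in all. Of the genes that miss the threshold, Mtx2 (0.064, adjusted p = 0.0650) and Ckmt2, the sarcomeric mitochondrial creatine kinase (0.10, adjusted p = 0.0678), had the lowest adjusted p.

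**Figure D4:**
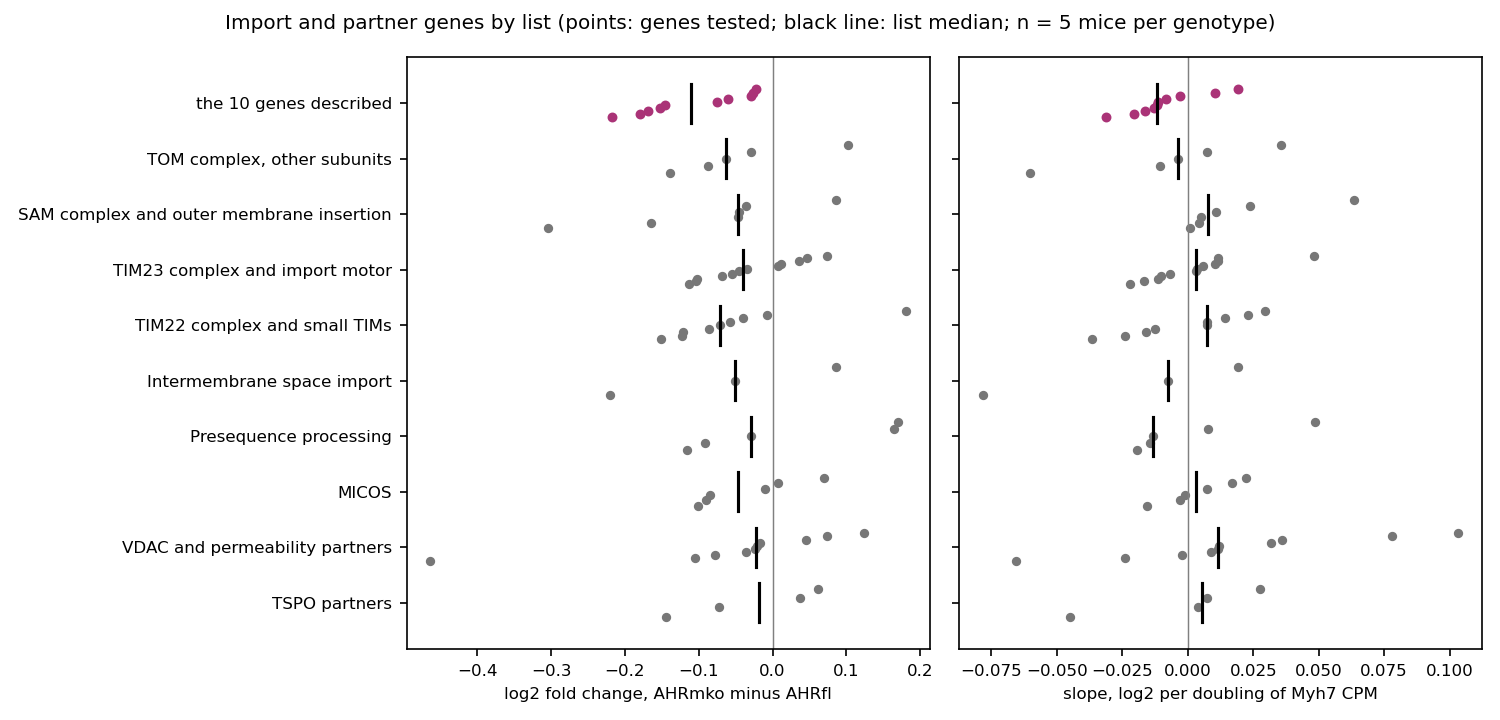
Genotype log2 fold change (left) and slope on Myh7 in log2 per doubling (right) of each gene tested in 9 lists of import and partner genes (grey) and of the 10 genes described (purple); each black line is a list's median. The medians of the 10 genes are -0.11 and -0.012, and those of the other lists lie between -0.072 and -0.018 for genotype.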

How the data were processed

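RNA from the gastrocnemius of 10 mice was sequenced as poly(A) paired-end libraries. Per the labels and the methods of the study, the authors used Trimmomatic 0.36 for trimming, STAR 2.5.2b for mapping to GRCm38 and featureCounts for unique exon reads per gene. The deposited values are raw counts, with 1 column for each mouse. Whether the libraries were stranded and the annotation release are not given in the sources used here.

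Symbols, positions and exon lengths were taken from GENCODE M21, which holds 49056 of the 49315 identifiers. Counts were fitted with edgeR 4.0.16 (filterByExpr with a minimum count of 10 and minimum total of 15, TMM, quasi-likelihood test with robust estimation, Benjamini-Hochberg adjustment over 14714 genes, or 14713 without Myh7). TMM also scales the CPM, and 2 was the prior count of log2 CPM. Exact permutation tests used all 252 assignments of mice and correlations 100000 resamples. DESeq2 1.42.0, limma 3.58.1, other scalings and filters, covariates and leaving out each mouse were alternatives. Near-identical copies were matches of at least 95% identity over 150 nt (BLAST+ 2.17.0). Promoter sequences are those of RefSeq.

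The genes and lists were chosen with earlier results of these data known. Named are the 10 genes, Ahr, Esr1, Myh7, the genes of each list that passed the test or, where none did, its most abundant gene, and the 5 genes closest in pattern to Vdac1, Vdac2 and Tspo, of which 1 is not reported here; genes at an unadjusted p under 0.05, Mtx2 and Ckmt2 on Myh7 were added after their values were seen. Each mouse counted as 1 replicate.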

Additional observations from a re-analysis of the deposited data

Results flagged for a closer look

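Of 22 groups of 5 mice examined, 2 held a mouse far from the others. Vdac2 had been noted beforehand for such a mouse, so its flag restates that observation and is only described. The number of flagged groups is therefore not set against chance. Vdac2 in AHRfl mouse 12 was the highest of its genotype, and its distance to the next mouse was 0.739 of the spread from lowest to highest AHRfl mouse. For Tomm20 in the same mouse this was 0.751. Mouse 12 also had the lowest Myh7 of all mice and the lowest summed level of slow-fibre genes (94.8 CPM). The part of this in either value was not tested.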

How the results depend on the processing

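None of the 9 genes other than Vdac2, which was not tested, passed the threshold, for genotype or for Myh7, under any alternative run, and the median log2 fold change between genotypes stayed between -0.13 and -0.076, also with each mouse left out. All 10 were below 0 under each of these except without AHRfl mouse 12, where Vdac2 (0.00097) and Vdac3 (0.012) were above it; leaving out each mouse gave from -0.042 to 0.00097 for Vdac2 and from -0.048 to 0.012 for Vdac3. DESeq2 called 20 genes in all and the fit without a filter 5, where edgeR called 1, 2 with Myh7 as a covariate and 6 without AHRmko mouse 34. On Myh7, 129 genes in all became 574 with DESeq2, 405 with no filter, 517 with the slow-fibre list and from 15 to 947 with each mouse left out.

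With library size only, the median slope on Myh7 was 0.0011, and those of Vdac1 (0.0015), Vdac3 (0.0043), Tomm20 (6.1e-05), Tomm40 (0.00072) and Samm50 (0.0098) reversed, as did r for Vdac3 (0.12) and Samm50 (0.26), while the median slope of all genes moved from 0.00014 to 0.013. With each mouse left out, the median slope of the 10 went from -0.014 (without AHRmko mouse 9) to -0.0053 (without AHRmko mouse 8). On linear Myh7 the median slope was -0.037 per SD, another unit. Spearman's rho of Tomm22 was -0.13, and r of Ppif without the 2 farthest mice was -0.15. With each mouse left out, the slope went from -0.014 to 0.00060 for Vdac3 and from -0.0060 to 0.00041 for Samm50, and r from -0.45 to 0.031 for Vdac3, from -0.11 to 0.29 for Ppif, from -0.16 to 0.30 for Tomm22 and from -0.27 to 0.0024 for Samm50. The import and partner genes called on Myh7 numbered 3 with DESeq2, 2 with library size only, 2 with no filter, 3 with the slow-fibre list in place of Myh7, and from 0 to 6 with each mouse left out.

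No paired analysis was possible because the litters of the mice are not given in the sources used here and each mouse number belongs to 1 genotype. The 10 genes had at least 687 counts in every mouse.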
